A study of Mus musculus with 2 samples.

Results

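The genes described are the 4 Notch receptors of the mouse (Notch1, Notch2, Notch3 and Notch4) and their 5 canonical ligands (Dll1, Dll3, Dll4, Jag1 and Jag2). They were taken by symbol, as the whole receptor and ligand families and not by any measured value, and they are 9 of the 43346 Ensembl genes in the deposited gene tables. The RNA came from hindbrain, the region from which the cerebellum, pons and medulla develop, in embryos of the mouse strain B6NCrl at embryonic day 12.5 (e12.5). Replicate 1 was a pool of 120 embryos and replicate 2 a pool of 88 embryos, with males and females mixed in each. The labels name no treatment, transgene or second tissue, so both libraries form 1 group, and the design gives expression levels with the spread between 2 pools. Differences between single embryos, between sexes and between cell types are averaged within each pool. RNA longer than 200 nt was kept, and 10 ng of total RNA entered each library.

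Notch signalling passes between touching cells. A ligand of the Delta-like or Jagged family on one cell binds a Notch receptor on its neighbour, the metalloprotease Adam10 and then the gamma-secretase complex cut the receptor, and the freed intracellular domain joins the DNA-binding protein Rbpj and a Mastermind coactivator to switch on Hes and Hey repressor genes. In the embryonic neural tube, cells that commit to become neurons raise Delta-like ligands and so keep their neighbours in the progenitor state, a process called lateral inhibition, while Dll4 and Notch4 are best known from the lining of blood vessels and Notch3 from both neural progenitors and the mural cells around vessels.

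The libraries held 31633169 expected counts (estimated fragments, not always whole) in replicate 1 and 29766460 in replicate 2. Levels are given as TPM, a relative transcript abundance that divides by transcript length and so allows genes to be set side by side. External ERCC spike-in RNAs took 8.39% and 10.9% of the TPM of replicates 1 and 2, so all TPM values of mouse genes are lower by these shares than they would be without the spike-ins. Markers of postmitotic neurons and of radial glia, the neural progenitors, all reached 1 TPM in each library (8 of 8 and 8 of 8), with median TPM of 338.8 and 354.7 for the neuron list and 99.9 and 99.8 for the progenitor list. Among lists for tissues around the hindbrain, 8 skeletal muscle genes summed to 53.98 TPM in replicate 1 and 253.4 in replicate 2. A list of 8 inner ear and epithelial genes summed to 385.4 and 196.1 TPM. Larger sums came from 8 meningeal and mesenchymal genes, 1435 and 1845 TPM, and from 7 erythroid genes, 19991 and 15868 TPM. Because the tissue was measured in bulk, fewer cells of a type and less RNA per cell cannot be told apart in any value given here.

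All 9 genes were expressed at more than 1 TPM in both libraries. The 2 highest were ligands of newly forming neurons, Dll1 and Dll3, followed by the receptor Notch1, and the 2 lowest gene totals were those of the ligands Dll4 and Jag2. Over the family the gene totals ran from 4.25 TPM (Jag2, replicate 1) to 53.4 TPM (Dll1, replicate 1). For these genes 3 counts, the upper limit for a gene with a count of 0, equal between 0.0152 and 0.0754 TPM in replicate 1, so each was measured far above its floor, counting error only.

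**Figure D1:**
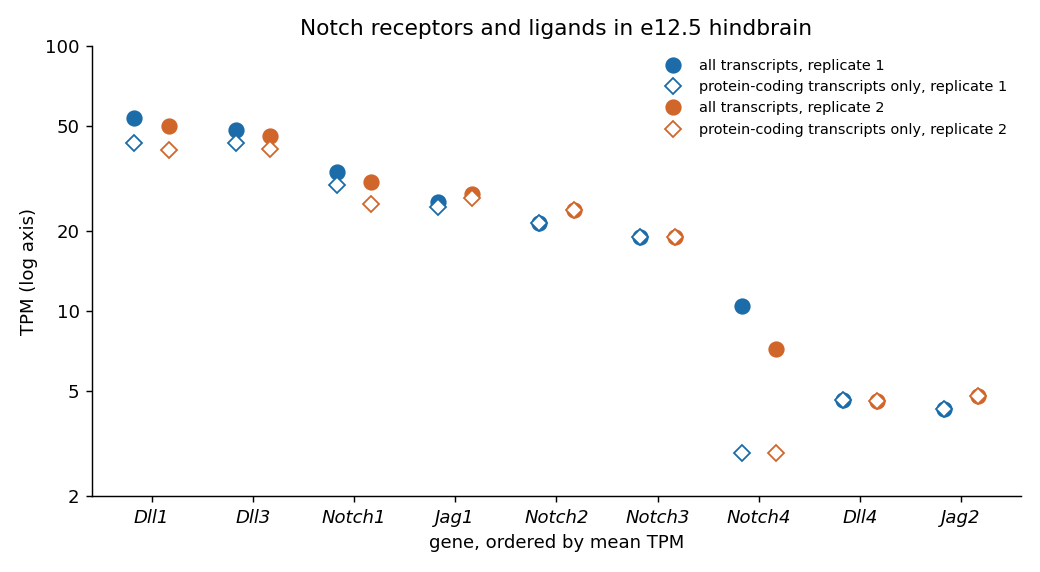
TPM on a log axis of each Notch receptor and ligand gene in replicate 1 (blue) and replicate 2 (orange), with filled circles for the gene total over all transcripts and open diamonds for protein-coding transcripts only. Dll1 and Dll3 lie highest, and Notch4 is the one gene whose diamonds (2.91 and 2.90 TPM) fall far below its circles (10.5 and 7.19 TPM).

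Notch1, the receptor most studied in neural progenitors, was the highest receptor, at 33.5 TPM in replicate 1 and 30.7 in replicate 2 (mean 32.1 ± 2.02, SD, n = 2), from 5440 and 4321 expected counts. Those levels put it at percentiles 63.1 and 60.3 of the 13520 protein-coding genes that reached 1 TPM in each library, whose median was 21.3 and 21.7 TPM. The gene lies at chr2:26457903-26516663 on the minus strand of mm10, the assembly of all coordinates given here. Of its 11 annotated transcripts the full coding transcript Notch1-201 held 89.4% and 82.9% of the TPM, and the retained-intron transcript Notch1-205 held 3.65% and 5.98%. A pair of noncoding genes overlap the annotated span of Notch1 on the opposite strand, Gm13568 at 19.0 and 13.4 TPM and 0610009E02Rik at 4.54 and 2.31 TPM. The sources used here do not say if library preparation preserved strand, so fragments in the overlaps, which cover 414 and 1488 bases, cannot be assigned to a strand with certainty.

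Notch2 (chr3:98013527-98150361, plus strand) was at 21.6 TPM in replicate 1 and 24.0 in replicate 2 (22.8 ± 1.73), from 4255 and 4367 counts. It sat near the middle of the expressed protein-coding genes, at percentiles 50.4 and 52.9. Notch3 (chr17:32120820-32166852, minus strand) was at 19.0 TPM in each library (19.0 ± 0.0283), from 2864 and 2646 counts, and its range did not overlap that of Notch2. Both genes have a single transcript in the tables. The antisense gene Gm17276 covers 21024 bases of the Notch3 span and held 13.2 and 16.6 counts, few beside those of Notch3.

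Beside Notch3, the list of 10 pericyte and smooth muscle markers had a median of 4.37 and 4.69 TPM, below Notch3 in both libraries. Its summed level was 228.4 and 246.2 TPM, and its highest member was Vtn, which encodes vitronectin, at 127.8 and 95.9 TPM. Pdgfrb (29.8 and 31.6 TPM) and the smooth muscle actin gene Acta2 (40.5 and 83.3 TPM) were also above Notch3. The rest of the list lay below Notch3 in both libraries, with the smooth muscle myosin gene Myh11 below 1 TPM in both. By an exact binomial test of their counts, 5 of the 10 were higher and 1 lower in replicate 2, against 10.7% and 9.68% of all genes tested. By an edgeR exact test 1 of the 10, Acta2, was higher and 0 were lower, against 0.942% and 0.625% of all genes tested. The log2 ratio of Notch3 counts was -0.01. How much of the Notch3 RNA came from mural cells, from neural progenitors or from other cells was not tested.

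Notch4 (chr17:34564268-34588503, plus strand) was the lowest receptor by gene total, at 10.5 TPM in replicate 1 and 7.19 in replicate 2 (8.84 ± 2.33), from 417 and 366 counts. It was also the gene with the widest relative spread between the libraries in TPM, a log2 ratio of -0.54, although its counts differed by only -0.09 on the log2 scale. The transcript tables show where that gap arises. The single protein-coding transcript, Notch4-201, took 85.9% and 90.0% of the gene's counts (358.4 and 329.4) but only 27.8% and 40.3% of its TPM, because it is 6591 nt long and the others in use are short. Counted alone it stood at 2.91 TPM in replicate 1 and 2.90 in replicate 2 (2.90 ± 0.00707), so the coding level was steady between the pools and lower than that of any other gene of the family.

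The transcript with the largest share of Notch4 TPM in both libraries was Notch4-210, a processed transcript of 619 nt with no annotated protein. It held 39.0% and 51.9% of the TPM, from 40.3 and 34.0 counts. By the posterior mean TPM, another deposited estimate, its share was 33.55% and 39.93%, still the largest of the gene. Another short transcript, Notch4-203, held 15.8% in replicate 1 and was listed at 0 in replicate 2, from 8.05 counts and 0, so shares of this size rest on a handful of fragments. Among protein-coding genes at 1 TPM or more in both libraries, 9860 had several transcripts. Their median share of TPM in coding transcripts was 90.9% and 91.4%, and 4.01% and 7.21% of those genes had a smaller coding share than Notch4. A noncoding transcript led in both libraries in 769 of those genes, or 7.80%, and of the 6 Notch receptors and ligands with several transcripts only Notch4 was so led.

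**Figure D2:**
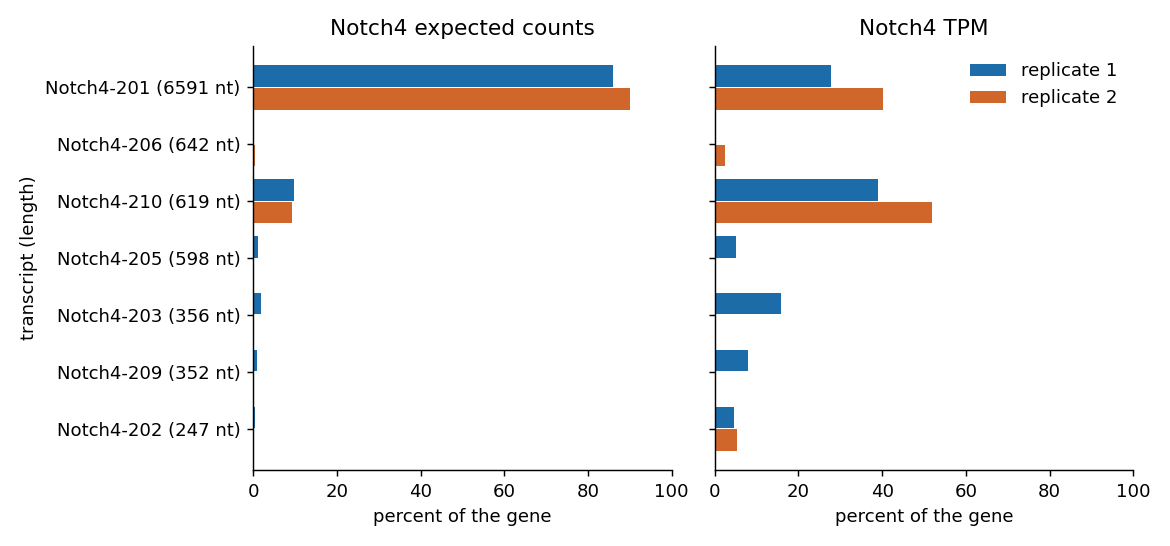
Percent of the Notch4 expected counts (left) and of the Notch4 TPM (right) in each transcript with a value above 0 in at least 1 library, with transcript length in brackets and bars for replicate 1 (blue) and replicate 2 (orange). The coding transcript Notch4-201 takes 85.9% and 90.0% of the counts, while the short Notch4-210 takes the largest part of the TPM in both libraries.

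Notch4-210 runs from 34587041 to 34587818 on chr17 and shares 543 of its bases, 87.7%, with exons 29 and 30 of the 30 exons of Notch4-201. What is its own is a stretch of 76 bases from intron 28. The first exon is printed because it shows how little sequence separates the short transcript from the coding one: capitals mark the 76 intron bases (34587041 to 34587116) and lower case the coding bases of exon 29. It is read from the GENCODE M21 transcript, chr17:34587041-34587214, plus strand, 5′ to 3′.
Notch4-210 first exon: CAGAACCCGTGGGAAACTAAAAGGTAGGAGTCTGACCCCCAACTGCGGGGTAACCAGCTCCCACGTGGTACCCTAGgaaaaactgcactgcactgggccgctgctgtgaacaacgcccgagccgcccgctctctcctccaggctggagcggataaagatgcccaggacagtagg
A fragment that falls wholly within exons 29 and 30 matches both transcripts, so the split of those fragments between Notch4-201 and Notch4-210 is the quantifier's estimate.

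Notch4 is best known from endothelium, the cells that line blood vessels. The list of 10 endothelial markers was detected in full, 10 of 10 at 1 TPM or more, with a median of 17.1 TPM in each library and sums of 166.5 and 171.6 TPM. That median is taken over gene totals, and the Notch4 gene total, 10.5 and 7.19 TPM, lay below it in both libraries. So did the coding level of Notch4, 2.91 and 2.90 TPM, which is a narrower measure. The log2 ratio of Notch4 counts between them was -0.09, beside a median of 0.02 on the same measure for the endothelial list.

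Among the ligands, Dll1 (chr17:15367354-15376872, minus strand), the Delta-like ligand that neuron precursors present to their neighbours, was the highest gene of the family at 53.4 TPM in replicate 1 and 49.7 in replicate 2 (51.6 ± 2.57), from 2874 and 2481 counts. It sat at percentiles 75.7 and 73.6 of the expressed protein-coding genes. Its coding transcript Dll1-201 held 77.2% and 77.7% of the TPM and the retained-intron transcript Dll1-204 another 12.8% and 13.2%. The other 2 retained-intron transcripts, Dll1-202 and Dll1-203, held 6.17% and 4.67%, and 0.570% and 1.03%.

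Dll3 (chr7:28293553-28302238, minus strand) encodes a divergent Delta-like protein that resides mostly inside the cell and can dampen Notch signalling in the cell that makes it. It was at 48.0 TPM in replicate 1 and 45.6 in replicate 2 (46.8 ± 1.65), from 2120 and 1858 counts. Both values lay below both values of Dll1, with a ratio of means of 1.10. Counted over coding transcripts alone the gap closed, with Dll3 at 43.0 and 40.9 TPM and Dll1 at 42.9 and 40.3 TPM, ranges that overlap.

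Jag1 (chr2:137081456-137116644, minus strand), the main Jagged ligand of the developing nervous system and inner ear, was at 25.8 TPM in replicate 1 and 27.5 in replicate 2 (26.7 ± 1.21), from 2607 and 2595 counts. Its coding transcript Jag1-201 held 95.5% and 97.0% of the TPM. Jag2 (chr12:112907819-112929776, minus strand), the second Jagged ligand, was far lower at 4.25 and 4.76 TPM (4.50 ± 0.361), from 319 and 329 counts. The ranges of the Jagged pair did not overlap.

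Dll4 (chr2:119325784-119335962, plus strand), the ligand of arterial and sprouting endothelium that is also made by some neuron precursors, was at 4.60 TPM in replicate 1 and 4.56 in replicate 2 (4.58 ± 0.0283), from 318 and 291 counts. Its range lay inside that of Jag2, so the last 2 places in the order by TPM are not separated. By the posterior mean TPM, Dll4 (4.96 and 4.67) lay above Jag2 (4.14 and 4.61) without overlap. The 7 arterial endothelial markers had a median of 11.3 and 12.3 TPM and sums of 114.4 and 126.5 TPM, with the arterial ligand gene Efnb2 highest at 48.5 and 51.3 TPM. Whether Dll4 RNA came from vessels or from the neural tube was not tested.

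Ordered by gene total, the family ran Dll1, Dll3, Notch1, Jag1, Notch2, Notch3, Notch4, Dll4 and Jag2, and all neighbours except Dll4 and Jag2 had ranges that did not overlap. The widest steps were from Notch3 to Notch4, with a ratio of means of 2.15, and from Notch4 to Dll4, with 1.93. Counted over protein-coding transcripts only, an alternative chosen after seeing the data, 5 genes changed rank. Dll3 and Dll1 then overlapped, Notch1 and Jag1 overlapped, and Notch4 moved to the last place below Jag2, leaving a step of 4.15 between Notch3 and Dll4.

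Within each library the ligands summed to more TPM than the receptors, 136.0 against 84.5 in replicate 1 and 132.2 against 80.9 in replicate 2. The ratio of ligand to receptor TPM was 1.61 and 1.64 (1.62 ± 0.0183). This ordering holds per length: receptor transcripts are longer, and in expected counts, which are not divided by length, the ratio was 0.635 and 0.646, the other way round. Dll1 and Dll3 together made 74.5% and 72.1% of the ligand TPM, and Jag1 made 19.0% and 20.8%. Dll4 with 3.38% and 3.45% and Jag2 with 3.12% and 3.60% were the small remainder.

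Of the receptor TPM, Notch1 made 39.6% in replicate 1 and 37.9% in replicate 2, Notch2 25.5% and 29.7%, Notch3 22.5% and 23.5%, and Notch4 12.4% and 8.89%. Notch1 was first by TPM in both libraries, but no receptor held the majority. By expected counts, not divided by length, Notch1 led in replicate 1 (41.9% against 32.8% for Notch2) and Notch2 in replicate 2 (37.3% against 36.9% for Notch1). With coding transcripts only, the share of Notch4 was 3.96% and 4.07%, and that of Notch2 29.4% and 33.6%. The Delta-like genes exceeded the Jagged genes 3.53-fold in replicate 1 and 3.10-fold in replicate 2 by TPM, and 1.82-fold and 1.58-fold by expected counts.

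**Figure D3:**
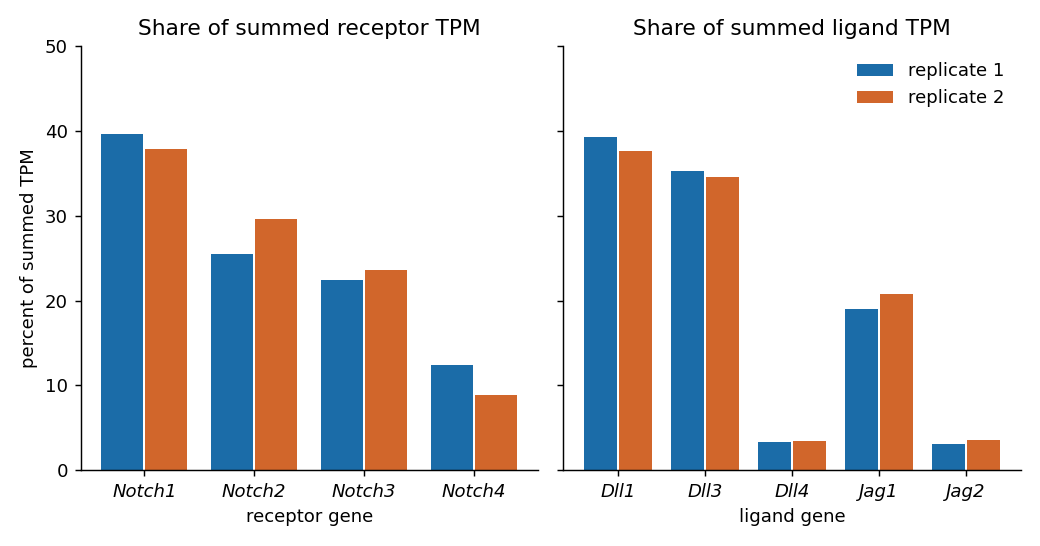
Percent of the summed receptor TPM made by each receptor (left) and of the summed ligand TPM made by each ligand (right), in replicate 1 (blue) and replicate 2 (orange). Notch1 makes 39.6% and 37.9% of the receptor total, and Dll1 and Dll3 together make 74.5% and 72.1% of the ligand total.

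Between the 2 pools the log2 ratios of these genes, replicate 2 over replicate 1, ran from -0.23 to 0.15. By a two-sided exact binomial test of the counts, which allows for counting error only and compares 2 libraries rather than conditions, 3 of the 9 genes passed an adjusted p of 0.05 (Benjamini-Hochberg over 19209 genes), against 20.4% of all genes tested. The 1 higher in replicate 2 stands beside 10.7% of all genes and the 2 lower beside 9.68%. Notch1 was lower in replicate 2 by a fold of 0.852 (adjusted p = 2.14e-13, exact binomial test), Dll1 was lower by a fold of 0.926 (adjusted p = 0.0291) and Notch2 was higher by a fold of 1.10 (adjusted p = 1.34e-04). In the edgeR exact test, which adds the spread between the libraries as a coefficient of variation of 9.02%, 0 of the 9 passed, against 1.57% of all genes (0.942% higher and 0.625% lower), and 0 had an unadjusted p below 0.05. The smallest unadjusted p in that edgeR exact test was 0.216, for Notch1. The coefficient of variation was estimated from the same 2 libraries, so ratios this small could hardly pass. The 0 of 9 therefore does not show that the pools were alike.

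The other 6 genes had log2 ratios between -0.09 and 0.15, and the median over the 9 was -0.03, beside -0.002 over all genes tested. Of the 9, 6 fell within the middle range of all genes, from -0.13 to 0.12, which holds the central 50% of them. With scaling to the ERCC spike-ins instead, the median of all genes moved to -0.371 and the ratios of Notch2, Jag1 and Jag2 changed sign to -0.23, -0.27 and -0.22, all above that median.

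**Figure D4:**
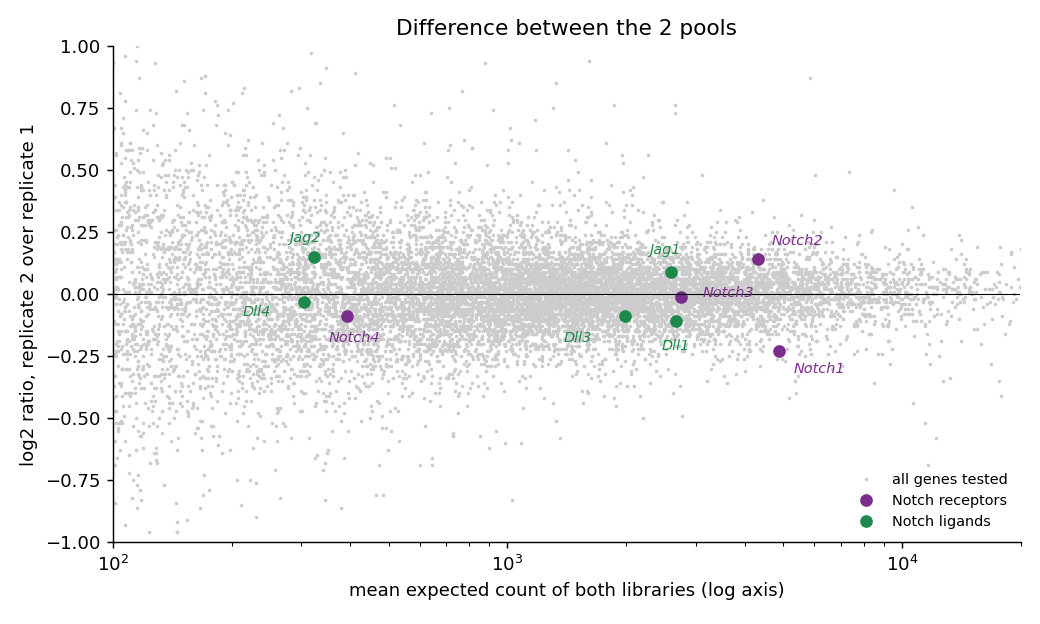
Log2 ratio of scaled counts, replicate 2 over replicate 1, against the mean expected count on a log axis, for all genes tested (grey) and the Notch receptors (purple) and ligands (green). Genes outside the plotted range are not drawn. The family lies between -0.23 (Notch1) and 0.15 (Jag2), inside the cloud of all genes.

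Marker lists also moved between the pools. Of the 8 radial glia markers 0 were higher and 3 lower in replicate 2 by the exact binomial test (sums 2584 and 2383 TPM), and of the 8 markers of neurogenic commitment 0 were higher and 4 lower (sums 591.7 and 542.9 TPM). The 8 postmitotic neuron markers had 5 higher and 2 lower (sums 2665 and 2803 TPM). The inner ear and epithelial list had 1 of 8 higher and 5 lower, and the skeletal muscle list 8 of 8 higher. Of the 8 meningeal and mesenchymal markers 6 were higher, of the 6 choroid plexus markers 3 were higher, and of the 7 erythroid markers 6 were lower. Over all genes tested, 10.7% were higher and 9.68% lower by that test. In the edgeR exact test, against 0.942% higher and 0.625% lower over all genes, 3 inner ear and epithelial genes were lower, 8 skeletal muscle genes were higher and 0 genes of the other 6 lists passed. No gene of these 8 lists was at 0 in either library. The part of these differences in the ratios of Notch1, Dll1 and Notch2 was not tested.

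Of 60 further genes of the Notch pathway, in 8 lists, 58 reached 1 TPM in each library. By the exact binomial test 7 were higher and 8 lower in replicate 2, shares near the 10.7% higher and 9.68% lower over all genes tested. By the edgeR exact test 0 passed and 0 had an unadjusted p below 0.05. Their median log2 ratio was -0.02, and 39 of the 60 lay in the middle range of all genes. Nearly all of these chosen genes were thus detected at 1 TPM, but the share of all genes reaching 1 TPM was not set beside them. Their mean levels ran from 0.285 TPM (Rbpjl) to 580.2 TPM (Nedd4). The Notch receptors and ligands lay inside that range, but it is too wide to show a likeness in level to the pathway. In each list the highest and lowest genes are named, with those that passed the exact binomial test, which were singled out after their values were seen.

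**Figure D5:**
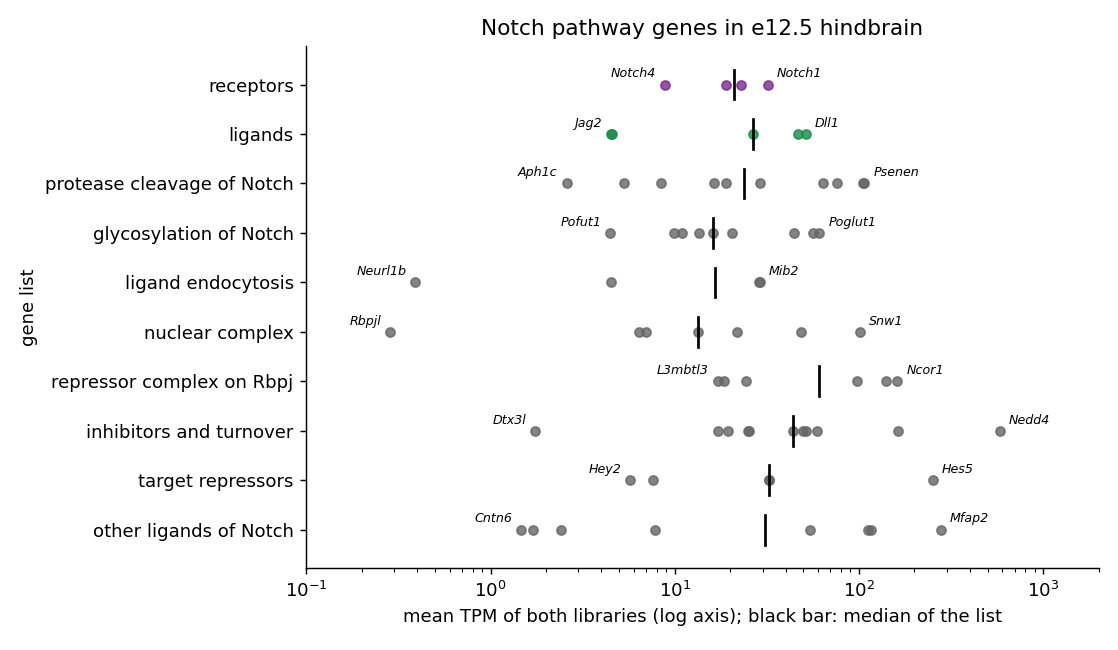
Mean TPM of both libraries on a log axis for each gene of the receptor, ligand and 8 pathway lists, with a black bar at the median of each list and the highest and lowest gene named. Neurl1b and Rbpjl are the only pathway genes below 1 TPM, and Nedd4 is the highest gene shown at 580.2 TPM.

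All 10 genes of receptor cleavage were detected, with a median of 23.7 and 24.2 TPM. Psenen, a subunit of gamma-secretase, was highest by mean at 110.0 and 104.0 TPM, although Ncstn, another subunit, at 104.9 and 106.9 TPM, exceeded it in replicate 2, and Aph1c, a variant of the Aph1 subunit, was lowest at 3.84 and 1.34 TPM. Adam10, which makes the first ligand-dependent cut, was at 72.1 and 80.5 TPM and was the one called higher in replicate 2 (log2 ratio 0.14), while Adam17 (-0.13) and Aph1b (-0.15) were called lower. Aph1b and Aph1c are near-identical neighbours, so the division of fragments between them is uncertain.

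The 9 genes that add sugars to Notch were all detected, from Pofut1, which adds the first fucose, at 4.57 and 4.37 TPM to Poglut1, which adds glucose, at 62.7 and 59.4 TPM. Mfng, one of the Fringe enzymes that tune which ligand a receptor answers, was the one called, with a log2 ratio of -0.16 (47.3 and 41.8 TPM). Of the 4 ubiquitin ligases that drive ligand endocytosis, 3 were detected, with Mib2 highest by mean at 31.7 and 26.1 TPM and Neurl1b lowest at 0.320 and 0.460 TPM. Mib1, the ligase needed for Delta-like and Jagged ligands to signal, exceeded Mib2 in replicate 2 and was called lower there than in replicate 1 (30.2 and 26.8 TPM, log2 ratio -0.17).

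In the nuclear complex 6 of 7 genes were detected. Snw1, a coactivator and splicing factor, was highest at 102.4 and 100.4 TPM, and Rbpjl, a relative of Rbpj known from the pancreas, was lowest at 0.310 and 0.260 TPM. Rbpj itself was at 46.1 and 50.6 TPM and was the one called, with a log2 ratio of 0.12. The 6 genes of the repressor complex that sits on Rbpj without Notch had a median of 60.1 and 61.4 TPM, from L3mbtl3 at 16.5 and 17.7 TPM to the corepressor Ncor1 at 162.7 and 161.2 TPM, and Hdac1 was called lower (-0.09).

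The 11 inhibitors and turnover genes were all detected, from Dtx3l at 1.64 and 1.86 TPM to the ubiquitin ligase Nedd4 at 573.4 and 587.1 TPM. Nedd4 (0.03) and Dtx1 (0.16) were called higher and Itch (-0.12) lower by the exact binomial test, which at 56300 and 53560 counts can call as small a difference as that of Nedd4. Among the 5 target repressors Hes5, the Hes gene most dependent on Notch in the neural tube, was highest at 268.3 and 236.3 TPM and was called lower in replicate 2, with a log2 ratio of -0.23. Heyl was called higher (0.29), and Hey2, known from arteries, was lowest at 5.12 and 6.34 TPM. The median log2 ratio of the 5 was -0.08, and 0 of them passed the edgeR exact test.

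Outside the Delta-like and Jagged families, 8 genes for other proteins reported to bind Notch were detected, from Cntn6 at 1.08 and 1.86 TPM to the microfibril protein gene Mfap2 at 280.2 and 278.4 TPM. Dner (0.14), a neuronal transmembrane protein, and Dlk1 (0.16), a Delta-like protein without the receptor-binding DSL domain, were called higher, and Egfl7 (-0.23), a secreted endothelial protein, was called lower. In both libraries Dner (105.8 and 118.0 TPM), Dlk1 (114.6 and 118.0 TPM) and Mfap2 each exceeded all 5 canonical ligands.

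The promoter windows of the 9 genes were read from RefSeq (GRCm38.p6), 250 bases before to 50 bases after each start. All 9 matched, with 10 windows since Dll1 has 2 starts. The E-box CAGCTG, a hexamer of the kind bound by proneural factors, equal on both strands, occurred in 16.3% of the 32851 windows in the table. It was found in 3 of the 10 windows, the second of Dll1 and those of Dll3 and Jag1, and not in the first window of Dll1. Whether this count exceeds the share over all windows was not tested. The match is a description of letters and does not show binding. The sequences are printed around the hexamer, in capitals, on the gene's strand, so that the flanking bases can be compared.
Dll1, chr17:15377048-15377075, minus strand: gcattaccataCAGCTGagcgcacaaag
Dll3, chr7:28301776-28301803, minus strand: ccggcatccagCAGCTGcgactcctgag
Jag1, chr2:137116586-137116613, minus strand: cgcgtttcatgCAGCTGatctgaaaggg
The hexamer began 132 bases before the second listed RefSeq start of Dll1, 7 bases before the RefSeq start of Dll3 and 82 bases before that of Jag1. The Dll3 and Jag1 sites lie inside the annotated gene spans given above, so they are upstream of the RefSeq start only. The Dll1 site lies outside the Dll1 span. A second E-box, CAGATG, searched on both strands and present in 17.2% of windows, and the Rbpj motif GTGGGAA, on both strands and present in 6.38%, were in no window of the 9 genes.

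The windows also differed in CpG, the dinucleotide that is dense in the promoters of widely expressed genes. Over all windows the median was 7 CpG and 52.7% G and C. The Notch1 window held 23 CpG with 68.3% G and C, that of Notch2 41, that of Notch3 25, and that of Notch4 held 5 with 58.3%, the only one of the family below the median number of CpG. The Jag2 window had the most, 63 CpG and 86.0% G and C, although Jag2 was among the lowest of the family, so the number did not follow the level in these 9 genes. The windows of the highest and the lowest receptor are printed to show the contrast, limited to the bases outside annotated exons. CpG are in capitals, 16 in 248 bases for Notch1 and 4 in 223 bases for Notch4. The Notch1 bases lie inside the annotated Notch1 span given above, so they are upstream of the RefSeq start only.
Notch1, chr2:26503825-26504072, minus strand: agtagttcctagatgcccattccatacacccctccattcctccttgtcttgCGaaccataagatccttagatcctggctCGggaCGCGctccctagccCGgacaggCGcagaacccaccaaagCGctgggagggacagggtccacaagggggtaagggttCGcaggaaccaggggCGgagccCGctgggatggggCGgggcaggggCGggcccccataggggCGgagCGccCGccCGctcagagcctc
Notch4, chr17:34564045-34564267, plus strand: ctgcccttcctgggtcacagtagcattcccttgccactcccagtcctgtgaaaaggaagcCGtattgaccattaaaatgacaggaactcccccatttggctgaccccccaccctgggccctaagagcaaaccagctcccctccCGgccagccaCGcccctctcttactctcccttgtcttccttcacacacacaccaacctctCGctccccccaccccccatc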

How the data were processed

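Total RNA of 2 pools of e12.5 hindbrain was analysed, as 1 group. The authors deposited a gene table and a transcript table per library, on mm10 with the GENCODE M4 annotation per the notes deposited with them. The sources used here name neither aligner nor quantifier. Expected counts, as deposited, are estimated fragments per gene or transcript, with shared fragments divided. The deposited TPM and FPKM values are length-normalised per the file headers, and FPKM was not printed. The deposited transcript shares are a percent of the gene's TPM per the file headers. Names, biotypes and coordinates came from GENCODE M21, which named 42462 of 43346 Ensembl genes. The 26249 entries that name no gene held 1.07e-04% and 1.14e-04% of the counts and, with the 96 ERCC spike-ins (3.41% and 4.36% of the counts), stayed out of the tests.

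Expected counts were rounded, genes with 10 or more counts summed over both libraries were kept, and TMM factors (0.99969 and 1.0003) came from edgeR 4.0.16 in R 4.3.3. The exact binomial test (scipy 1.17.1, two-sided) was the main test, because 2 libraries of 1 group leave a quasi-likelihood fit no residual degrees of freedom. The edgeR exact test took its common dispersion from the same 2 libraries. In counts simulated with a 10% coefficient of variation (0.1 as a fraction) and 18918 genes, the exact binomial test called 6212 unchanged genes and the edgeR exact test 0, with 138 of 200 genes changed 2-fold called. The log2 ratios used a prior count of 0.5. Alternatives were the posterior mean TPM, TPM without spike-ins, counts in place of TPM, library totals, DESeq2 1.42.0 size factors, ERCC scaling, other detection and count filters, log2(TPM + 1) and each library alone. TPM of protein-coding transcripts alone was added after seeing the data.

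All 9 receptors and ligands are named, and the highest and lowest gene of each pathway list. The genes and lists were chosen with earlier results of these data known. All 165 listed genes matched 1 identifier. Floors and binomial p-values cover counting error only, since amplified fragments are not independent molecules.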

Additional observations from a re-analysis of the deposited data

How the results depend on the processing

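With TPM rescaled to Ensembl genes only, the receptor sum moved from 82.7 to 91.5 TPM and the ligand sum from 134.1 to 148.4 TPM, since the spike-ins leave the total. With the posterior mean TPM, Notch1-201 held 77.2% and 72.1% of Notch1, and Notch4-201 23.1% and 29.0% of Notch4. The receptor sum was then 87.0 TPM, and the Notch1 share of it 41.1% in place of 38.8%. The ligand to receptor ratio was 1.52 in place of 1.62. With expected counts that ratio was 0.640, the Notch4 share 3.17% in place of 10.6%, and the Dll1 and Dll3 share 59.0% in place of 73.3%. With protein-coding transcripts only, the sums were 72.4 and 118.4 TPM, the Notch4 share 4.01%, the Dll1 and Dll3 share 70.6%, and 5 genes took another rank. With 1 library alone the receptor sum ranged from 80.9 to 84.5 TPM and the ligand sum from 132.2 to 136.0 TPM, and between 0 and 2 genes took another rank, Dll4 and Jag2 exchanging places in replicate 2.

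In place of 3 family genes, 15 pathway genes and 3921 of all genes, the edgeR exact test called 0, 0 and 301, and the exact binomial test under ERCC scaling 8, 51 and 13010. The ERCC scaling turned the log2 ratios of Notch2 to -0.23, Jag1 to -0.27 and Jag2 to -0.22. Why the spike-ins took different shares of the libraries was not tested. Under the other scalings and the count filter the number of family genes called stayed within 1.5 times. No paired analysis was possible because all samples form 1 group. With 1 library per pool, differences between the pools rest on no replicate, and the 3-count floors limit only transcripts such as Notch4-203, at 8.05 counts and 0.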
